A study of Mus musculus with 12 samples.

Results

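The members described here are the ERVK repeats of the mouse genome other than the IAP and RLTR10 elements. They were chosen by annotation alone, as repeat rows of the deposited count table with family ERVK and a subfamily name beginning with neither IAP nor RLTR10. The rule used no measured value. There were 248 such subfamilies among 1554 repeat subfamilies, with 279038 copies among 5138235. At least 1 count over the 12 libraries fell on 42950 of these copies (15.4%). By their names, 35 subfamilies were internal regions and 213 were long terminal repeats (LTRs), and 4 had no count in any library.

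ERVK elements are endogenous retroviruses, remnants of retroviral infection of the germ line that move through an RNA intermediate. An intact element holds an internal region, with genes of the gag and pol type, between a pair of LTRs, and the LTR carries the promoter. Recombination between the LTRs leaves a solitary LTR, so that most copies in the genome have no coding region. In the mouse germ line and early embryo, ERVK elements are known to be held silent by DNA methylation, by histone H3 lysine 9 methylation through KRAB zinc finger proteins with TRIM28 and SETDB1, and by piRNAs, the small RNAs of the PIWI proteins.

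Libraries came from whole testes of C57BL/6 mice at postnatal day 16, either Mael+/- (heterozygous) or Mael-/-. Mael encodes Maelstrom, a protein needed for piRNA production and for repression of the retrotransposon LINE-1 in male germ cells, and the study examined what its loss does to RNA and to translation. Both genotypes were collected in cycloheximide, which stalls ribosomes. Total RNA and ribosome footprints were prepared from aliquots of testis extracts, with 3 libraries for each of the 4 combinations of genotype and assay. The labels do not say which libraries share an extract, and RNA and footprint libraries of the same number are treated here as one extract. The labels do not say whether replicates were separate animals, so p-values measure the spread between these libraries.

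Gene counts per library summed to between 13697267 and 27462358 in RNA and to between 7609932 and 13233565 in footprints. The members held 45991 to 73189 counts in an RNA library and 22594 to 39767 in a footprint library. Mael had 5045, 4314 and 3800 RNA counts in the heterozygous libraries and 1, 2 and 0 in the Mael-/- libraries, so the labels fit the targeted gene. Markers of spermatogonia, meiotic prophase, Sertoli and Leydig cells were all present in RNA. Levels are given as CPM, counts scaled to the gene counts of the same library, with TMM factors within an assay. Heterozygous replicate 1 stood apart in both assays. Its 15 pachytene spermatocyte markers summed to 1032 CPM in RNA, against 348 and 383 in the other heterozygous libraries and 283 to 323 in Mael-/-. In footprints that sum was 1223 against 356 and 441, and 310 to 359 in Mael-/-. The early meiotic prophase markers summed to 2896 CPM in this replicate in RNA, against 1327 and 1450, and 1297 to 1774 in Mael-/-. In footprints they summed to 3739 against 1669 and 1728, and 1745 to 1932 in Mael-/-. For spermatogonia, Sertoli and Leydig markers, replicate 1 was not the highest heterozygous library in either assay. Among members with a mean of at least 20 counts, heterozygous replicate 1 was the highest heterozygous library for 146 of 207 in RNA and for 102 of 180 in footprints.

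The members' RNA counts were concentrated in few subfamilies and few copies. The 10 highest subfamilies held 49.8% of the counts in RNA and 39.3% in footprints. Internal regions held 49.1% of RNA counts and 36.5% of footprint counts. Of 30270 copies with RNA counts, 289 carried 50% of them, and in footprints 619 of 28151 did. Copies carry the subfamily's name and a number, as in the table. Their positions and sequences were not analysed here.

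ERVB4_1-I_MM-int, the internal region of a betaretrovirus-like element, took 17.2% of the members' RNA counts and 15.2% of their footprint counts. In RNA it measured 403, 404 and 539 CPM in the heterozygous libraries and 547, 395 and 511 CPM in Mael-/-, so the genotypes overlapped. Of its 296 copies, 3 held 99.8% of its RNA counts, and ERVB4_1-I_MM-int_12 by itself 73.7%. That copy had 6269, 7865 and 10965 RNA counts in the heterozygous and 5645, 5882 and 10656 in the Mael-/- libraries. Other subfamilies also rested on 1 copy. The LTR subfamily RLTR21, at 49.8 to 63.4 CPM in RNA with a log2 fold change of 0.09 ± 0.18, drew 83.1% of its RNA counts from RLTR21_1452. ETnERV3-int drew 66.1% from ETnERV3-int_188. Of the 207 members with a mean of at least 20 RNA counts, 22 had over 50% of them in a single copy. For such members the level of the subfamily is mostly that of 1 copy, while its fold change can differ from that of the copy.

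**Figure D1:**
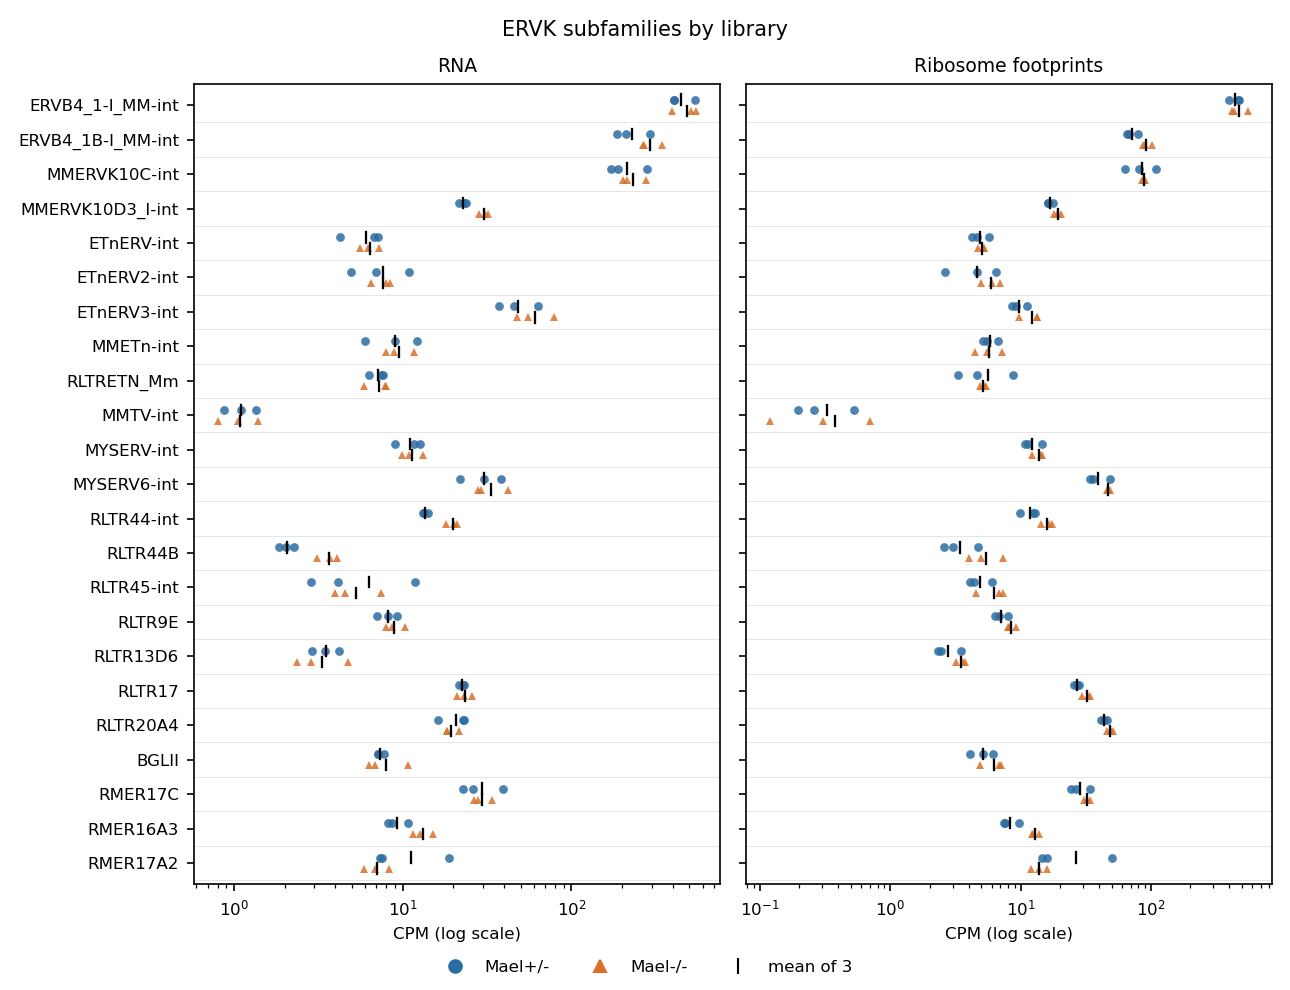
Level of 23 ERVK subfamilies in each library, in CPM on a log axis, for RNA (left) and ribosome footprints (right). Circles are Mael+/- and triangles Mael-/- libraries, and a black bar is the mean of 3. The genotypes overlap for most subfamilies in RNA, RLTR44-int and RMER16A3 are among those set apart in both assays, and 1 heterozygous library of RMER17A2 lies far to the right.

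The first comparison asked whether loss of Mael altered the RNA level of these elements. No member was called (edgeR quasi-likelihood test, adjusted p under 0.05 over all repeat subfamilies) among the 224 that passed the filter on low counts, where 0.898% of all 1114 subfamilies tested were called. Without adjustment, p was under 0.05 for 12 members by edgeR and for 9 by DESeq2, which also called 0 after adjustment. The 12 were 5.36% of the members tested, against 5.57% of all subfamilies. The median log2 fold change of Mael-/- over Mael+/- was 0.11 for the members and 0.10 for all subfamilies, and 157 members (70.1%) lay above 0 against 69.8%. Higher were MLTR18_MM, MLTR32C_MM, MMERVK10D3_I-int, RLTR20D, RLTR44-int, RLTR44B, RLTR46A, RLTR46B and RMER16A3, and lower were RLTR20A2B_MM, RLTR53B_Mm and RMER17A2, named here after their values were seen. The genotypes did not overlap for 24 members, 10.7% against 11% of all subfamilies, with 19 higher in Mael-/- (8.48% against 9.43%) and 5 lower (2.23% against 1.62%). The 95% confidence interval lay within 1 log2 unit of 0, a 2-fold change, for 186 of the 224 (83.0%). In whole testis, fewer cells of a type and less RNA per cell cannot be told apart.

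MMERVK10C-int, the internal region of elements known to be derepressed when TRIM28 or SETDB1 is lost, held 8.01% of the members' RNA counts. Its RNA level was 280, 188 and 173 CPM in the heterozygous libraries and 276, 215 and 202 CPM in Mael-/-. The heterozygous library that was highest was replicate 1. The log2 fold change was 0.11 ± 0.20 (SE), with a 95% interval from -0.31 to 0.54 and an edgeR adjusted p of 1, and without heterozygous replicate 1 it was 0.35 (adjusted p = 0.631). Its relative MMERVK10D3_I-int measured 21.6, 23.7 and 23.1 CPM and then 28.2, 30.8 and 32.3 CPM in Mael-/-, without overlap. The difference of 0.42 ± 0.19 on the log2 scale did not pass (edgeR adjusted p = 0.829). MMERVK10D3_I-int was singled out after its values were seen.

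The ETn and MusD elements, of which MusD encodes the proteins that mobilise the non-coding ETn, had 5 members and none was called. ETnERV3-int took the most counts of them, with 45.6, 37.2 and 63.0 CPM in the heterozygous and 79.3, 47.9 and 55.2 CPM in the Mael-/- RNA libraries. These ranges overlapped, and the log2 fold change was 0.32 ± 0.23 (edgeR adjusted p = 1). ETnERV-int, ETnERV2-int, MMETn-int and the LTR RLTRETN_Mm lay between 4.24 and 12.1 CPM in every RNA library, with log2 fold changes of 0.06, 0.00, 0.07 and 0.02. Each of these 5 members had a 95% interval within 1 log2 unit of 0.

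RLTR44 elements were the name group with the highest median among those with more than 1 member tested. All 6 of its members lay above 0 in RNA, with a median of 0.46 on the log2 scale, and none was called. RLTR44B held the smallest edgeR adjusted p of all members, 0.151. It measured 1.86, 2.27 and 2.04 CPM in the heterozygous and 3.71, 3.12 and 4.08 CPM in the Mael-/- RNA libraries, a log2 fold change of 0.82 ± 0.23. The 3 Mael-/- libraries were all higher, and without heterozygous replicate 1 the value was 0.76 (adjusted p = 0.215). RLTR44-int measured 13.4, 13.3 and 14.2 CPM against 21.0, 18.0 and 20.3 CPM, again without overlap, with a log2 fold change of 0.54 ± 0.20 (edgeR adjusted p = 0.446). RLTR44A, RLTR44C, RLTR44D and RLTR44E had log2 fold changes between 0.23 and 0.48, and were singled out, like the group, after their values were seen.

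Of the 34 internal regions tested in RNA, 32 overlapped between genotypes, the exceptions being MMERVK10D3_I-int and RLTR44-int. MYSERV-int and MYSERV6-int had log2 fold changes of 0.03 ± 0.22 and 0.13 ± 0.24. MMTV-int, the internal region of mouse mammary tumour virus, had 35 copies and measured 0.801 to 1.39 CPM, with a log2 fold change of 0.00 ± 0.34. Its LTR, RLTR3_Mm, reached at most 0.218 CPM and was too low to be tested. RLTR45-int measured 11.9, 2.85 and 4.15 CPM in the heterozygous and 7.42, 4.56 and 3.97 CPM in the Mael-/- libraries. Its log2 fold change turned from -0.26 ± 0.40 (edgeR adjusted p = 1) to 0.57 when heterozygous replicate 1 was left out (adjusted p = 0.528).

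Among LTRs, RLTR9E, known as an enhancer source in embryonic stem cells, measured 7.06 to 10.3 CPM over the 6 RNA libraries and RLTR17 measured 21.0 to 25.9 CPM. RLTR13D6, RLTR20A4, BGLII and RMER17C likewise overlapped between genotypes, and the 6 log2 fold changes ran from -0.11 to 0.13. RMER16A3 measured 8.67, 8.23 and 10.8 CPM in the heterozygous and 15.2, 12.7 and 11.4 CPM in the Mael-/- libraries. The genotypes were separate, with a log2 fold change of 0.50 ± 0.22 (edgeR adjusted p = 0.719). RLTR20D and RLTR26B_MM had log2 fold changes of 0.60 ± 0.24 and 0.55 ± 0.27, both without overlap. Below 0 and without overlap were RLTR53B_Mm at -0.89 ± 0.32, with 75.9% of its RNA counts in 1 copy, and RLTR20A2B_MM at -0.57 ± 0.24. None of these 4 had an edgeR adjusted p under 0.385.

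**Figure D2:**
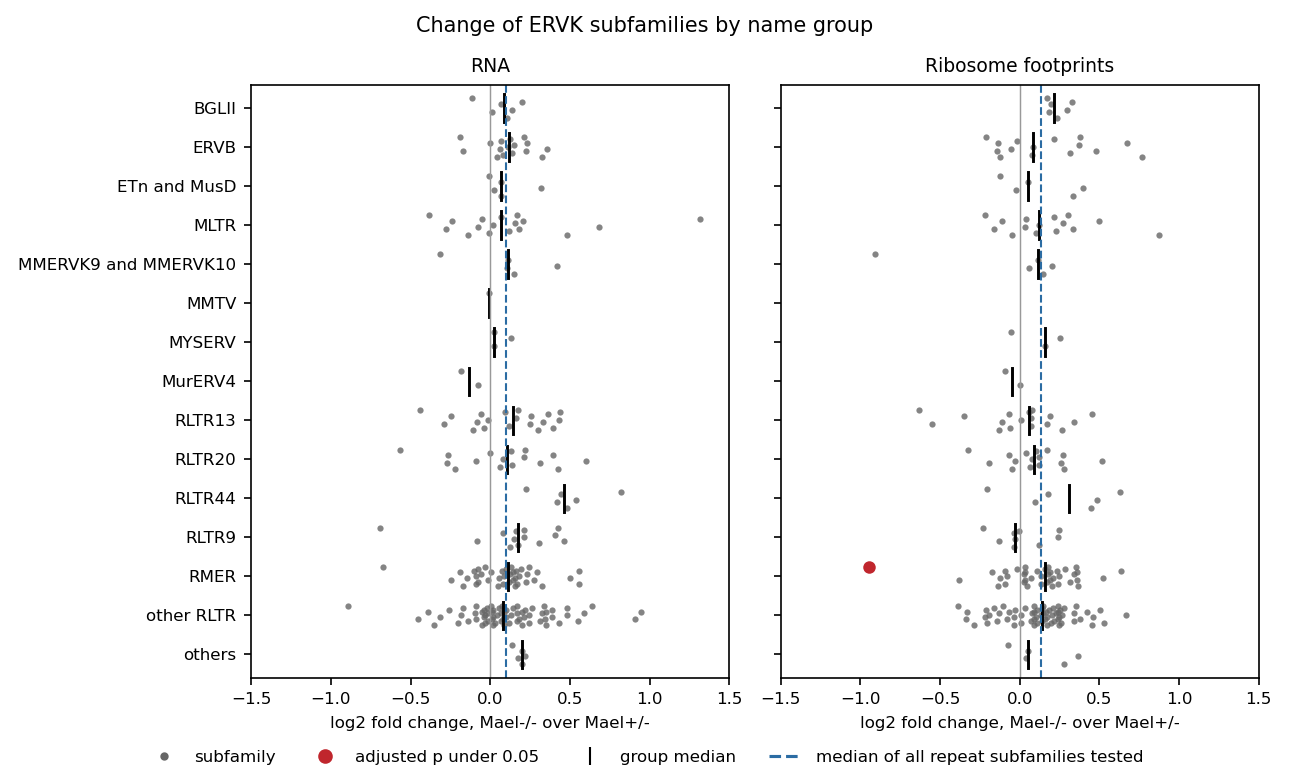
Log2 fold change (Mael-/- over Mael+/-) of each ERVK subfamily tested, by name group, for RNA (left, 224 subfamilies) and footprints (right, 206). Small grey points are subfamilies, a red point has an adjusted p under 0.05, a black bar is the group median and the dashed line the median of all repeat subfamilies tested. The points surround the dashed line in most groups, and in RNA the RLTR44 points all lie to its right. In footprints the RLTR44 median lies to its right and 1 of the 6 points lies below 0. RMER17A2 is the red point.

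The second comparison asked the same of ribosome footprints, the RNA fragments that ribosomes cover. Of 206 members tested, 1 was called, where 1.82% of 1045 subfamilies were called, 1.15% higher and 0.67% lower. It was RMER17A2, an LTR with 2594 copies. Its footprint level was 49.9, 16.04 and 14.5 CPM in the heterozygous and 15.8, 13.9 and 11.98 CPM in the Mael-/- libraries. Heterozygous replicate 1 was 3.11 times the next library, and the other heterozygous libraries overlapped with Mael-/-. The log2 fold change was -0.94 ± 0.20 (edgeR adjusted p = 0.000393). It was -0.13 (adjusted p = 0.694) without heterozygous replicate 1, and DESeq2 gave -0.95 without a call (adjusted p = 0.931). With RMER17A2_2487, its highest copy, left out it was -0.30 (adjusted p = 0.824). Leaving out heterozygous replicate 3 or Mael-/- replicate 3 gave -1.25 and -0.85, with edgeR adjusted p of 0.272 and 0.0517. In RNA the same subfamily measured 18.7, 7.39 and 7.52 CPM and then 6.84, 8.28 and 5.94 CPM in Mael-/-, a log2 fold change of -0.67 ± 0.32 (edgeR adjusted p = 0.895). Without heterozygous RNA replicate 2 that was -0.90 and called (adjusted p = 0.0354), and without replicate 1 it was -0.09 (adjusted p = 0.893). The part of pachytene or early meiotic content in this difference was not tested.

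No other member was called in footprints. The median log2 fold change was 0.12 over the 206 members against 0.13 over 1045 subfamilies, and 145 members (70.4%) lay above 0 against 73.8%. Unadjusted p was under 0.05 for 15 members (7.28%, against 7.46% of all subfamilies) by edgeR and for 7 by DESeq2. Genotypes did not overlap for 29 members, 14.1% against 13% of all subfamilies, with 28 higher in Mael-/- (13.6% against 11.3%) and 1 lower (0.485% against 1.72%). RMER16A3 measured 7.42, 9.70 and 7.61 CPM in the heterozygous and 12.4, 12.2 and 13.8 CPM in the Mael-/- footprint libraries. It was the member nearest to a call upward, with a log2 fold change of 0.64 ± 0.21 (edgeR adjusted p = 0.109). RLTR12A, RLTR19C, RLTR20B3 and MLTR18C_MM were also without overlap, with log2 fold changes of 0.53, 0.67, 0.51 and 0.50 and RNA log2 fold changes of 0.07, 0.02, 0.08 and -0.05. RLTR49 was the member that lay lower without overlap, with 16.3, 15.6 and 14.0 CPM against 13.5, 11.6 and 11.2 CPM, a log2 fold change of -0.34 ± 0.20.

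MMERVK10C-int measured 110, 80.8 and 63.4 CPM in the heterozygous and 89.4, 89.2 and 85.7 CPM in the Mael-/- libraries, a log2 fold change of 0.06 ± 0.18. The Mael-/- values lay inside the heterozygous range. ERVB4_1B-I_MM-int measured 67.9, 65.3 and 79.9 CPM against 86.4, 89.4 and 101 CPM, without overlap, with a log2 fold change of 0.38 ± 0.18 (edgeR adjusted p = 0.595). In RNA this subfamily had 0.36 ± 0.19 with overlap. The ETn and MusD members had footprint log2 fold changes from -0.12 to 0.40, and RLTR44-int had 0.44 ± 0.21 (edgeR adjusted p = 0.535). RLTR44B had 0.63 ± 0.26 (adjusted p = 0.386), and without heterozygous footprint replicate 1 it was called, at 0.91 (adjusted p = 0.0228).

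Translation efficiency, the change of footprints beyond that of RNA, was tested as a genotype by assay term in a model of the 12 libraries. None of the 206 members tested was called by edgeR or DESeq2, where 0% of 996 subfamilies were called. Unadjusted p was under 0.05 for 2 members by edgeR (0.971%, against 2.91% of all subfamilies) and for 1 by DESeq2. The 2 were the LTRs RLTR49, with a log2 difference of -0.73 ± 0.28, and RMER16B2, with -0.94 ± 0.45. RLTR49 had footprint to RNA ratios of 3.09, 4.19 and 3.21 in the heterozygous extracts and 1.87, 2.25 and 2.12 in Mael-/-, and 1 of its copies held 64.2% of its footprints. The 95% interval lay within 1 log2 unit of 0 for 133 of 206 members (64.6%), fewer than in either assay alone. For MMERVK10C-int it ran from -0.67 to 0.55.

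The ratio of footprint CPM to RNA CPM, each scaled to the genes of its assay, differed widely between members and little between genotypes. Over 180 members with a mean of at least 20 counts in both assays, the median ratio was 1.32 in Mael+/- and 1.36 in Mael-/-. Genes had 0.953 and 0.952, and other repeat subfamilies 1.38 and 1.45. The authors describe gene RNA as counted over the full mRNA and gene footprints over the coding sequence only. The ratios of genes and of repeats need therefore not be like measures. Internal regions (n = 30) had a median of 0.990 in Mael+/- and LTRs (n = 150) of 1.38. The ratio was above 1 in all 6 extracts for 84 members and below 1 in all 6 for 14. A footprint count on a repeat says that a fragment of that sequence was recovered, and whether it came from a translated frame of the element was not tested.

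ETnERV3-int had the lowest ratio of the 180, with 0.247, 0.247 and 0.136 in the heterozygous extracts and 0.169, 0.204 and 0.243 in Mael-/-. MMERVK10C-int had 0.397 ± 0.0317 (SD, n = 3) and 0.388 ± 0.0551 (n = 3). Neither pair of groups was separate. At the other end RLTR26 had a mean of 7.49 in Mael+/- and 6.28 in Mael-/-, and the internal region RLTR42-int had 3.64 and 4.19. RLTR26 drew 74.9% of its footprints from 1 copy. The copy RLTR42-int_838 had 0 RNA counts in all 6 libraries, yet 243, 219 and 217 footprint counts in the heterozygous and 349, 303 and 259 in the Mael-/- libraries, which was 59.0% of the footprints of RLTR42-int. Among copies with at least 20 footprint counts, 148 of 1150 had no RNA count. Among those with at least 20 RNA counts, 75 of 2499 had no footprint. Copies named in this paragraph were singled out after their values were seen.

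**Figure D3:**
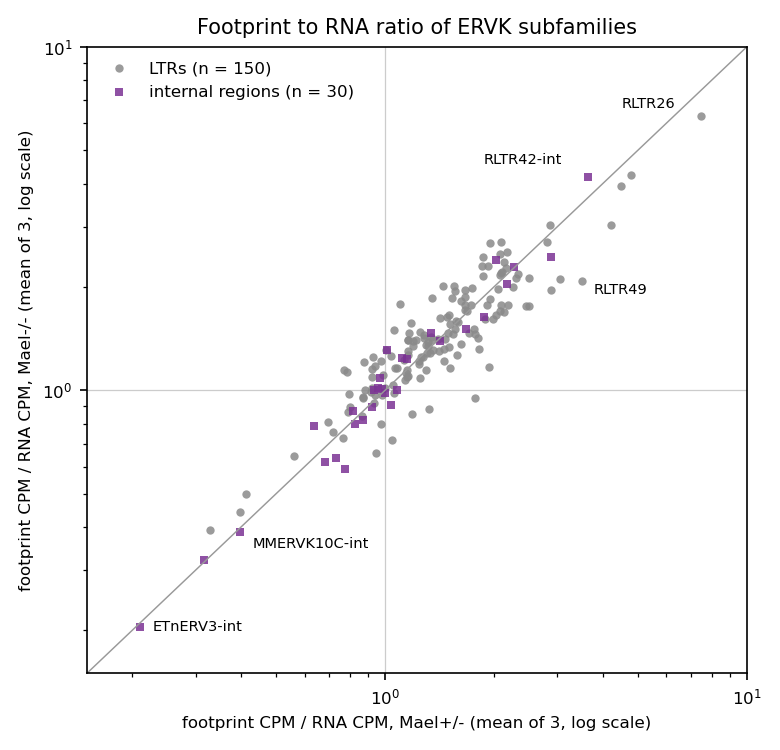
Ratio of footprint CPM to RNA CPM of 180 ERVK subfamilies in Mael+/- (horizontal axis) and Mael-/- (vertical axis), each the mean of 3 extracts on a log axis, with squares for internal regions and circles for LTRs. Points follow the diagonal of equal ratios from ETnERV3-int at 0.210 and 0.205 to RLTR26 at 7.49 and 6.28.

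The deposited table also gives counts for each copy, so the test was repeated on single copies. In RNA, 800 copies of the members passed the filter, of 279038, and 14 were called (1.75%, where 1.62% of 16710 repeat copies were called). Of these, 9 were higher in Mael-/- (background 1.51%) and 5 lower (background 0.102%), and they belonged to 8 subfamilies. Without heterozygous replicate 1, 24 were called, 22 higher and 2 lower. The share over all repeat copies in that fit is not given here, so these counts are not read as a change particular to the members. In footprints 283 copies were tested and 3 were called (1.06%, background 0.817%), 1 higher (background 0.563%) and 2 lower (background 0.254%), and 2 of the 3 were also called in RNA. Of the 14 called in RNA, 6 were called whichever library was left out, and 11 were also called by DESeq2. A copy near 0 in one genotype passed the filter on low counts only through the other, so its call and the stability of that call are no independent support. This applied to RMER19B2_437, RLTR44-int_176, MMERVK10D3_I-int_429 and RMER17A2_2487 in RNA and to RMER17A2_2487 and MurERV4-int_1260 in footprints. Less near 0, but with heterozygous levels too low to pass the filter without Mael-/-, were other copies called higher. These were MMERVK10D3_I-int_193, MMERVK10C-int_1263, MMERVK10C-int_2846 and RLTR44-int_44 in RNA and RLTR44-int_44 in footprints, and the same limit holds for them.

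Of the 9 RNA copies called higher in Mael-/-, 7 were of internal regions, as were 274 of the 800 copies tested (34.2%), and this difference was not tested. RLTR44-int_44 had 5, 10 and 10 RNA counts in the heterozygous and 16, 29 and 77 in the Mael-/- libraries, and 3, 4 and 2 against 20, 22 and 13 in footprints. It rose in both assays, by 2.51 ± 0.39 on the log2 scale in RNA (edgeR adjusted p = 0.000192) and by 2.36 ± 0.49 in footprints (adjusted p = 0.0150), and its libraries did not overlap in either. The footprint call was lost without heterozygous replicate 3, Mael-/- replicate 1 or Mael-/- replicate 2 (adjusted p = 0.105, 0.0663 and 0.365), while its log2 fold change lay between 2.06 and 2.72 whichever library was left out. RLTR44-int_44 passed the filter in both assays only through Mael-/-. Neither this range, nor the lack of overlap, nor the rise in both assays is therefore independent support. RLTR44-int_176 rose too, from 0, 1 and 2 RNA counts to 10, 14 and 14. From 3 counts in all to 38, scaled for depth, that was a ratio of 15.9, with a 95% interval from 5.04 to 80.4 that covers counting error only. That call was lost without Mael-/- replicate 2 (edgeR adjusted p = 0.114).

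MMERVK10D3_I-int had 3 copies that rose. MMERVK10D3_I-int_192 had 26, 31 and 24 RNA counts in the heterozygous and 63, 113 and 149 in the Mael-/- libraries, a log2 fold change of 2.30 ± 0.26. MMERVK10D3_I-int_193 had 7, 7 and 8 against 32, 59 and 93, a log2 fold change of 3.32 ± 0.33. Both were called whichever library was left out, though for MMERVK10D3_I-int_193, which passed the filter only through Mael-/-, this is no independent support. MMERVK10D3_I-int_429 had 0, 2 and 1 against 9, 13 and 14, a ratio of 15.04 (95% counting interval 4.75 to 76.3), and its call was lost without Mael-/- replicate 1 or 2 (edgeR adjusted p = 0.0635 and 0.153). When the called copies were left out of the sum, the log2 fold change of MMERVK10D3_I-int went from 0.42 to 0.02. For RLTR44-int the same step gave 0.38 in place of 0.54, and for RMER16A3 0.35 in place of 0.50. These copies were chosen by the same contrast, so the step describes where the difference of a subfamily sat and tests nothing.

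MMERVK10C-int had called copies in both directions. MMERVK10C-int_2846 and MMERVK10C-int_1263 rose, with 16, 11 and 5 against 41, 35 and 22 RNA counts and 6, 8 and 10 against 17, 29 and 26. MMERVK10C-int_3175 and MMERVK10C-int_188 fell, with 101, 95 and 69 against 28, 17 and 22 and 127, 87 and 67 against 27, 30 and 44. Their log2 fold changes were 2.04 ± 0.45, 1.92 ± 0.39, -1.58 ± 0.32 and -1.16 ± 0.29, and each of the 4 lost its call when at least 1 of the 6 libraries was left out. MMERVK10C-int_186, among the 3 copies of the subfamily with the most RNA counts, had 360, 240 and 149 against 78, 92 and 136 and a log2 fold change of -0.98 ± 0.27 (edgeR adjusted p = 0.0768). The 2 highest copies, MMERVK10C-int_2284 and MMERVK10C-int_2285, held 11.5% and 6.08% of the subfamily and had log2 fold changes of 0.21 ± 0.19 and 0.15 ± 0.20. Left without its called copies, the subfamily had 0.13 in place of 0.11.

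LTR copies made up the rest. RMER16A3_107 rose from 19, 14 and 19 to 36, 52 and 40 RNA counts, a log2 fold change of 1.67 ± 0.32, and was called whichever library was left out. RMER19B2_437 rose from 0, 0 and 1 to 7, 9 and 22, a ratio of 47.6 (95% counting interval 8.05 to 1930.35). RLTR11A2_2000 had 126, 11 and 23 RNA counts in the heterozygous and 7, 6 and 7 in the Mael-/- libraries, and RMER19C_2340 had 204, 41 and 57 against 22, 24 and 28. In both, the CPM ranges of the genotypes overlapped and heterozygous replicate 1 was far above the rest. Without it their log2 fold changes went from -2.71 to -0.92 and from -1.73 to -0.56 (edgeR adjusted p = 0.586 and 0.587). Without Mael-/- replicate 2 or 3 neither was called.

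A pair of copies was near 0 in Mael-/-. RMER17A2_2487 had 133, 28 and 41 RNA counts in the heterozygous and 1, 0 and 3 in the Mael-/- libraries, and 217, 19 and 37 against 0, 0 and 1 in footprints. Its log2 fold change was -5.29 ± 0.71 in RNA (edgeR adjusted p = 3.31e-05) and -7.78 ± 1.06 in footprints (adjusted p = 0.000211). In RNA the depth-scaled ratio of Mael+/- to Mael-/- was 40.3 (95% counting interval 15.5 to 149), and in footprints it was 315 (56.1 to 12499.8). Without heterozygous replicate 1 these ratios were 19.7 (7.34 to 74.2) and 98.6 (17.0 to 3963). It held 16.4% of the RNA and 23.0% of the footprint counts of RMER17A2. MurERV4-int_1260 had 131, 10 and 16 footprint counts in the heterozygous and 0, 0 and 1 in the Mael-/- libraries. Its footprint log2 fold change was -6.99 ± 1.14 (edgeR adjusted p = 0.00126), with a depth-scaled ratio of 181 (95% counting interval 32.1 to 7208). It was -5.02 (adjusted p = 0.0322) without heterozygous replicate 1. In RNA it had 136, 7 and 21 against 0, 0 and 2 counts, and did not pass the filter. Its RNA ratio was 65.4 (17.8 to 545), and without heterozygous replicate 1 it was 15.96 (4.02 to 138). Its subfamily of 1525 copies had a footprint log2 fold change of -0.10 ± 0.20. Both copies passed the filter only through the heterozygous libraries, in footprints and, for RMER17A2_2487, in RNA. Their calls and the values without heterozygous replicate 1 are therefore no independent support. Whether these copies overlap genes was not tested.

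**Figure D4:**
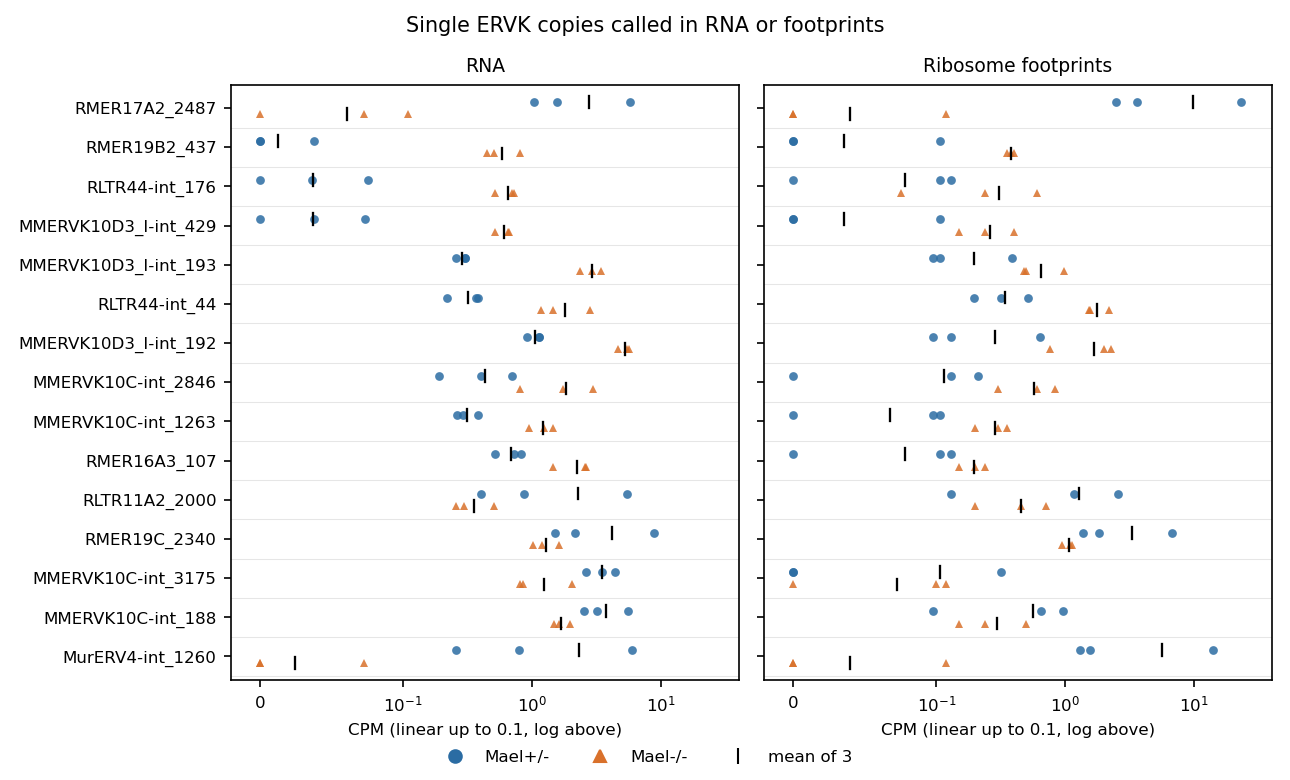
CPM of the 15 single ERVK copies called in RNA or footprints, by library, on an axis that is linear up to 0.1 and log above, with circles for Mael+/-, triangles for Mael-/- and a black bar for the mean of 3. RMER17A2_2487 and MurERV4-int_1260 lie near 0 in Mael-/- in both panels, and heterozygous libraries of RMER19B2_437, RLTR44-int_176 and MMERVK10D3_I-int_429 lie near 0 in RNA.

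The summed level of all members was then set against the most similar retroviral groups in each library. In RNA the members summed to 2866, 2278 and 2730.1 CPM in the heterozygous and 3347, 2604 and 2669 CPM in the Mael-/- libraries. These overlapped, with a log2 difference of 0.13 (exact permutation test, two-sided, p = 0.6). In footprints the sums were 3119.6, 2922 and 2512 CPM against 3009.9, 3119.3 and 3229 CPM, a log2 difference of 0.13 (exact p = 0.3). With 3 libraries a group this test cannot go below 0.1. IAP elements, the ERVK group most known for germ line silencing, had RNA sums of 391, 350.3 and 435 CPM against 594, 445 and 494 CPM, which did not overlap. The ratio of the members to IAP in RNA was 7.34, 6.50 and 6.28 in Mael+/- and 5.63, 5.84 and 5.40 in Mael-/-. It was lower in each of the 3 Mael-/- libraries, by 0.25 on the log2 scale, at the smallest p the design allows (exact permutation test, p = 0.1). In footprints the ratio to IAP overlapped between genotypes, at 9.93 ± 0.779 and 10.8 ± 0.437 (SD, n = 3 each, exact p = 0.2). The ratio of the members to ERV1 was 3.19 ± 0.198 and 3.40 ± 0.0241 in footprints (n = 3 each, exact p = 0.1). In RNA the ratios to RLTR10, ERV1 and ERVL differed between genotypes by less than the spread between libraries (exact p = 0.9 for each), and in footprints the same held for RLTR10 and ERVL (exact p = 0.9 and 0.6).

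Genes known for silencing ERVK elements were read from a fit over all genes. They comprised TRIM28 and SETDB1 complexes, heterochromatin proteins, DNA methyltransferases and the piRNA pathway, 44 in all, of which 43 were in the table. In RNA 1 of 43 was called, where 0.116% of 14647 genes were called, and in footprints 1 of 42 (0.0593% of 13500). In both it was Mael, whose RNA fell from 173 ± 39.9 CPM to 0.0573 ± 0.0513 CPM (n = 3 each). Of the 43 genes 25 lay below 0 and 18 above in RNA, with a median log2 fold change of -0.04 against 0.00 over all genes. Unadjusted p was under 0.05 for 4 of the 43 in RNA (5.39% of all genes) and for 5 of the 42 in footprints (4.33% of all genes). Besides Mael these were, in both assays, Piwil1, Tdrd9 and Mov10l1 of the piRNA pathway, and in footprints also Asz1, all lower in Mael-/- and named after their values were seen. Piwil1, which is also among the pachytene markers, had 78.8, 10.9 and 13.9 CPM in the heterozygous and 8.08, 8.08 and 6.82 CPM in the Mael-/- RNA libraries. Heterozygous replicate 1 again stood far above the others, and without it the log2 fold change of Piwil1 in RNA went from -2.17 to -0.71. The edgeR unadjusted p of Piwil1 was 0.00777 with that library and 0.000448 without it (adjusted p = 0.0808 without it). That library stood out elsewhere too. It was also the highest library for Tdrd9 and Mov10l1 in RNA and for Asz1 in footprints. Without it their log2 fold changes there were -0.32, -0.19 and -0.19 (edgeR unadjusted p = 0.00325, 0.0512 and 0.0661), against -0.51, -0.45 and -0.37 with it. None of these 4 genes had an adjusted p under the threshold without it in either assay. Without it, unadjusted p was under 0.05 for 8 of the listed genes in RNA. They were Dnmt3b, Hells, Mael, Morc2a, Mphosph8, Piwil1, Tdrd9 and Uhrf1. With all libraries, Hells, Morc2a and Mphosph8 of these lay above 0 in RNA and the others below. In footprints there were 10, namely 2810474O19Rik, Dnmt3b, Hells, Mael, Morc2a, Mov10l1, Mphosph8, Piwil1, Setdb1 and Tdrd9. With all libraries, 2810474O19Rik, Hells, Morc2a and Setdb1 of these lay above 0 in footprints and the others below. The lists thus hold both directions. The share over all genes without that library is not given here, and only Mael was called.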

How the data were processed

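The series holds 3 libraries each of total RNA and of ribosome footprints for the Mael+/- and the Mael-/- genotype. The authors clipped linkers from footprint reads, removed reads of ribosomal DNA with Bowtie 1.2.2, aligned to mm10 with STAR 2.6.0c and counted with featureCounts (Subread 1.6.4), RNA over the full mRNA and footprints over the coding sequence. The values deposited for genes and single repeat copies are raw counts, whole and not normalized. For the repeat analysis of their other RNA libraries the authors describe STAR with multiple alignments allowed and reassignment by Telescope. Whether that applies to these counts, how strand was treated and whether duplicates were collapsed is not given in the sources used here. The other deposited tables hold the authors' DESeq2 1.24.0 fold changes and p-values for genes and were not used.

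Copies were summed by subfamily. All repeat subfamilies, all single copies with at least 10 counts in the 6 libraries of an assay, and all genes were each tested with edgeR 4.0.16 (R 4.3.3) by quasi-likelihood F-tests after its default filter on low counts, with Benjamini-Hochberg adjustment over everything tested and a call at an adjusted p under 0.05. Library sizes were gene totals times TMM factors of the genes within an assay. Translation efficiency was the interaction of genotype and assay. Sums were compared by two-sided exact permutation tests. Values are means ± SD over 3 libraries, or estimates ± SE. Counting intervals (95%, exact) cover counting error only, since amplified reads are not independent molecules. Total gene counts ran from 7609932 to 27462358 per library, and no 2 replicates held identical counts. RNA and footprints of the same number deviated together (r across 13463 genes 0.626 to 0.781 in Mael+/- and 0.225 to 0.247 in Mael-/-). The labels describe aliquots of extracts without saying which libraries share one, so the pairing by number is an assumption. A fit with that number as a term left the calls of translation efficiency at 0.

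The rule for the members used annotation alone, but the rule, the name groups, the gene lists and the tests were chosen with earlier results of these data known. The text names 18 subfamilies of a set list, called members, the 10 highest in RNA and 5 highest in footprints, and per assay up to 5 in each direction without overlap between genotypes, ranked by fold change among those averaging 20 counts or more. It names called copies and the 3 highest copies of MMERVK10C-int, of the ETn members and of called members, though not every entry is described. On simulated counts with 200 changed features, the subfamily test recovered 94.9% of 2-fold and 100% of 4-fold changes in RNA (1110 subfamilies, 3.47% false calls). In footprints it recovered 95.6% and 100% (1036 subfamilies, 5.31% false calls), and for translation efficiency 72.5% and 98.8% (991 subfamilies, 2.96%). The copy test recovered 59.6% and 98.0% in RNA (17207 copies, 7.6% false calls) and 71.2% and 100% in footprints (5669 copies, 4.49%). Every simulated feature had the same dispersion, no library stood apart, and only features averaging at least 20 counts were changed. The rates therefore need not hold for noisier or sparser features of the real data. Alternatives were DESeq2 1.42.0, other size factors and filters, leaving out the highest copy or a library, and a replicate block.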

Additional observations from a re-analysis of the deposited data

How the results depend on the processing

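Of the alternatives planned, leaving out copies that overlap genes was not run, since positions were not analysed here. Leaving out called copies, heterozygous replicate 1 from both assays, or that library from the counting ratios, was chosen after seeing the data. In RNA the count of called members was 2 of 224 with a replicate block (RLTR44B and RLTR44-int, both higher), where 39 of all 1114 subfamilies were called. It was 0 to 1 with a library left out, RMER17A2 being called lower without heterozygous replicate 2. In footprints, DESeq2 and leaving out the highest copy gave 0. The count was 0 to 3 with a library left out: without heterozygous replicate 1 it was RLTR44B, RLTR9A2 and RMER6C, all higher, without Mael-/- replicate 3 RLTR9A2, and without heterozygous replicate 3 none. For translation efficiency it was 0 in all alternatives run. Called copies in RNA numbered 37 (19 higher) with a filter of at least 20 counts in place of the default, and 11 to 27 with a library left out, with 24 (22 higher), 23 (12 higher) and 27 (18 higher) without heterozygous replicates 1, 2 and 3. In footprints they numbered 10 with that filter and 2 to 4 with a library left out. For the changed filter and the left-out libraries the shares over all features are not given here, and the cause of these shifts was not tested. Replicate numbers were shared between genotypes only as numbers: the correlation of deviations was 0.217, -0.015 and 0.150 in RNA and 0.0775, 0.210 and 0.045 in footprints, and 2 of 3 correlated best with their own number in each assay. The replicate block gave 1 called member in footprints, where 16 of all 1045 subfamilies were called. It gave 3 called copies in footprints and 20 in RNA, where 48 of all 5511 and 342 of all 16710 copies were called.

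The sign of small values turned. With the highest copy left out, ERVB4_1-I_MM-int went to -0.046 and RLTR45-int to 0.071 in RNA, and the log2 ratio of members to ERVL went to 0.014. With a library left out, MMERVK10C-int lay between -0.036 and 0.35 in RNA, between -0.12 and 0.29 in footprints and between -0.30 and 0.18 in translation efficiency, and RLTR45-int from -0.61 to 0.57. The summed LTRs ranged from -0.019 to 0.19 in RNA. The log2 ratio to RLTR10 lay between -0.19 and 0.082 in RNA and between -0.11 and 0.052 in footprints, that to ERV1 in RNA from -0.023 to 0.063 and that to ERVL in RNA from -0.064 to 0.039. At this depth 800 of 279038 copies could be tested in RNA and 283 in footprints.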
